A study of Mus musculus with 7 samples.

Results

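The genes described here are the 49 DNA replication and S-phase genes of a fixed list, taken from the 55367 genes counted in the series by matching their symbols, and all 49 were found. Each had at least 3 counts in each library, and all passed the filter on low counts (mean of 5 or more), so every member was among the 12623 genes tested. The list holds the genes that load, fire and run the replication machinery, the clamp and its loaders, the factors that finish the new strand, and the E2F factors that control many of them. Transcripts were counted at their 3′ ends in 7 libraries of CD8+ T cells, isolated by FACS from spleens of healthy mice of the Foxp3 YFP/cre strain, in which the regulatory T cells are marked. For CD8+ T cells in culture, the study's methods instead describe negative selection with a kit, and they name wild-type mice beside this strain. The cells received small extracellular vesicles (sEVs) for 48 hours, at 100 μg/mL in every library per the labels. The methods instead describe amounts matched to what each kind of spleen holds, so the dose may have differed between the groups together with the source of the vesicles, and these cannot be told apart. In 4 libraries these were control vesicles from healthy spleens (HCME-sEVs), and in 3 libraries they were vesicles from the spleens of leukemic mice of the Eμ-TCL1 model (LME-sEVs). In that model the transgene acts in B cells, and the vesicles were purified from whole spleen, so they come from any cell of the organ and not from leukemia cells alone. The study's figure legend for the RNA sequencing at 48 hours gives the reverse group sizes, 4 with LME-sEVs and 3 with HCME-sEVs. The sample titles were followed here. Neither labels nor methods say whether the libraries came from separate animals, so p-values measure the spread between these libraries, which may be partly technical.

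A cell copies its genome once per division. In G1 the origin recognition complex (ORC), Cdc6 and Cdt1 load the MCM helicase onto origins, a step called licensing, and geminin blocks Cdt1 afterwards. In S phase the kinase Cdc7, Mcm10, Cdc45 and the GINS complex switch the helicase on, polymerases with primase copy the strands, and PCNA, a sliding clamp loaded by the RFC complex, holds the polymerases in place. RPA covers single-stranded DNA, and Fen1 and Lig1 join the fragments of the lagging strand. E2F factors, held in check by pocket proteins of the RB family, drive transcription of many of these genes at the G1/S boundary. Naive CD8+ T cells rest outside the cycle and divide rapidly once activated, and the study's methods describe culture of CD8+ T cells with anti-CD3, CD28 antibody and IL-2.

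Because E2F factors bind the promoters of many replication genes, the promoters (RefSeq, GRCm38.p6, the build to which the reads were mapped) were read for E2F letters. A window of 300 bases, from 250 before to 50 after the annotated start, was held for 40 of the 49 members in 48 windows. The E2F letters searched on both strands were TTTCCCGC, TTTGGCGC, TTTCGCGC and TTTGCCGC. A match was found for 17 of the 40 members (42.5%), against 465 of the 9247 tested genes with a window (5.03%) and 704 of all 27025 genes with a window (2.60%). Stretches of 100 bases that hold matches follow for 6 members, with the E2F letters in capitals, read 5′ to 3′ on the strand of the gene. They are shown because they belong to a licensing factor, to 3 subunits of the helicase, to a polymerase and to a clamp loader described in the results. The Mcm5 and Mcm6 stretches hold a pair of matches on opposite strands that overlap by several bases.
Cdc6 (chr11:98907967-98908066, plus strand): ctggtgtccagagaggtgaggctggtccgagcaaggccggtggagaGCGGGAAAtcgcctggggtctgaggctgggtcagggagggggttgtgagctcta
Mcm3 (chr1:20820263-20820362, minus strand): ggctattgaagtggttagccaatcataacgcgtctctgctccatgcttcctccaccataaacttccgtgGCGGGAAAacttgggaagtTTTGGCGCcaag
Mcm5 (chr8:75109312-75109411, plus strand): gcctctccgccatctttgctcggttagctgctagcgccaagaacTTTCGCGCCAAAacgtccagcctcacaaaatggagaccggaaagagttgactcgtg
Mcm6 (chr1:128359731-128359830, minus strand): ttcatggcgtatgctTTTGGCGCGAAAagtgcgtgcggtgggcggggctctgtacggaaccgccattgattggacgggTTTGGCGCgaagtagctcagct
Pola1 (chrX:93632240-93632339, minus strand): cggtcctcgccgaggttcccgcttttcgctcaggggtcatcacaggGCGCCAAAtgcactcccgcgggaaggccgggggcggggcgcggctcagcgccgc
Rfc3 (chr5:151651160-151651259, minus strand): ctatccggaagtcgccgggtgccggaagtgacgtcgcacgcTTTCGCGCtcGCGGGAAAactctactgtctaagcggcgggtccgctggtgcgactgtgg

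Other motifs were searched in the same windows. The CCAAT box (CCAAT) was found for 26 of the 40 members (65.0%) and 43.7% of tested genes with a window. The E-box CACGTG, the letters of MYC and its partner MAX, was found for 6 members (15.0%) and 11.8% of tested genes. The CHR element TTTGAA, known from genes of late cell cycle, was found for 8 members (20.0%) and 14.7% of tested genes, whereas 12 of 20 mitosis genes with a window held it (60.0%). The mitosis genes held E2F letters in 1 of 20 (5%). A match is a run of letters and not a measured binding site.

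**Figure D1:**
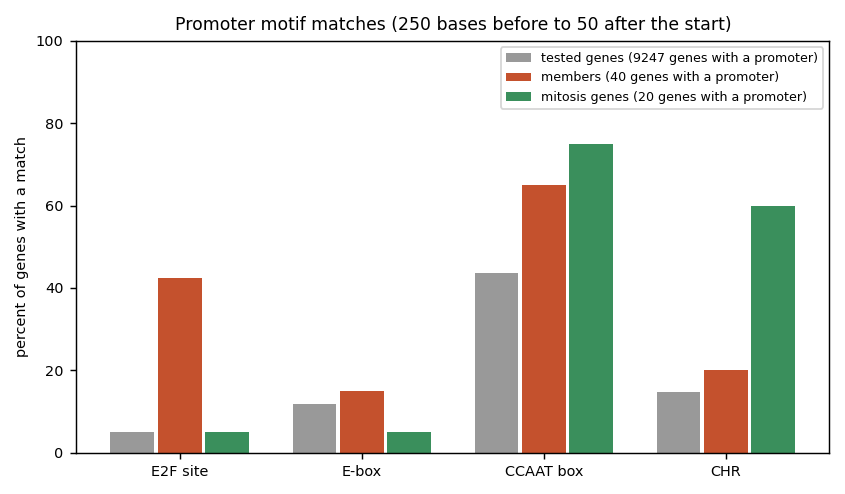
Percent of genes whose promoter window holds each motif on either strand, for tested genes (gray), the replication members (orange) and mitosis genes (green). E2F letters were found for 42.5% of members, 5.03% of tested genes and 5% of mitosis genes, and the CHR element for 60.0% of mitosis genes.

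After 48 hours, 6 of the 49 members (12.2%) were lower with LME-sEVs: Orc2, Cdc6, Mcm10, Gins1, Pcna and Rfc5. None rose, and 43 did not pass the test. Among all 12623 tested genes, 1131 passed (8.96%), of which 658 were lower (5.21% of tested genes) and 473 higher (3.75%), by the same test, edgeR's quasi-likelihood test on TMM-normalized counts at an FDR under 0.05 after Benjamini-Hochberg adjustment over all tested genes. With counts scaled by library size only, the balance turned, with 465 lower and 614 higher. Among the 6611 tested genes within the abundance range of the members, 7.81% were lower and 4.70% higher, a share of lower genes nearer to that of the members. No member had a log2 fold change beyond 1 in size, whereas 162 tested genes passed the test with such a change (1.28%). At an unadjusted p under 0.05 (edgeR), 17 members were lower and 1, E2f2, was higher, together 18 of the 49. Of all 12623 tested genes, 2864 had such a p in either direction.

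The log2 fold change (LME-sEVs over HCME-sEVs) was below 0 for 44 of the 49 members (89.8%), against 48.5% of all tested genes. With counts scaled by library size only, it was below 0 for 36 of 49. The 48.5% does not apply to that scaling, under which the median over all tested genes was 0.06. With TMM scaling, the median log2 fold change over the members was -0.12, a change of -7.82%. Over all tested genes it was 0.01, and over those within the abundance range of the members -0.03. The values ran from -0.58 for Orc2 to 0.26 for E2f2. In 13 members every LME-sEV library lay below every HCME-sEV library (26.5%), against 10.8% of tested genes, and in no member did every LME-sEV library lie above, against 9.49%. These shares describe a list chosen with earlier results of these data known, so no test was run on the list as a whole.

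The number of members that fell rests on thin margins. It was 2 when counts were scaled by library size only and 3 with the upper quartile or with the test of DESeq2, and leaving out any library but HCME-sEV library 3 took it to between 1 and 3. Orc2 passed in all 15 alternatives, Pcna in 11, Mcm10 in 10, Gins1 and Rfc5 in 6 each and Cdc6 in 4.

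**Figure D2:**
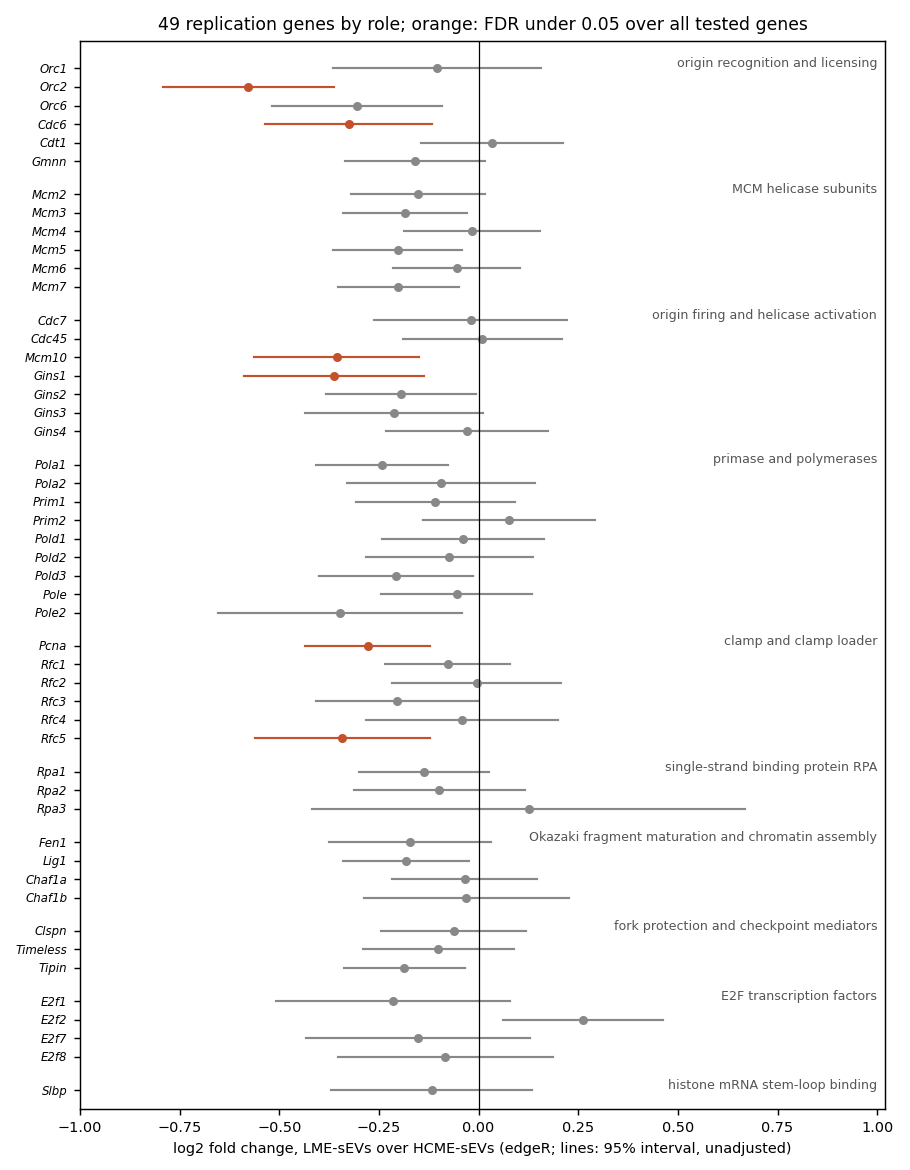
Log2 fold change of each of the 49 members by role (points) with its unadjusted 95% interval (lines), LME-sEVs over HCME-sEVs. The 6 members at an FDR under 0.05 are orange, all are below 0, and 44 of the 49 points lie left of 0.

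The summed level of the 49 members lay between 6389 and 6714 CPM (counts scaled to library size after TMM normalization) in HCME-sEV libraries and between 5843 and 6134 CPM in LME-sEV libraries. Values written with ± are the mean and SD over 4 HCME-sEV and 3 LME-sEV libraries. Members ranged widely in abundance, from a mean of 20.5 CPM for Pole2 to 669 CPM for Lig1 with HCME-sEVs. Each counted fragment comes from the 3′ end of a transcript, so gene length does not enter these levels. Within groups the members varied little, with a median coefficient of variation of 8.01% over HCME-sEV and 6.06% over LME-sEV libraries. For tested genes of the same range of abundance it was 9.12% and 7.40%. In a culture, fewer cells in S phase and less of these transcripts per cell cannot be told apart.

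**Figure D3:**
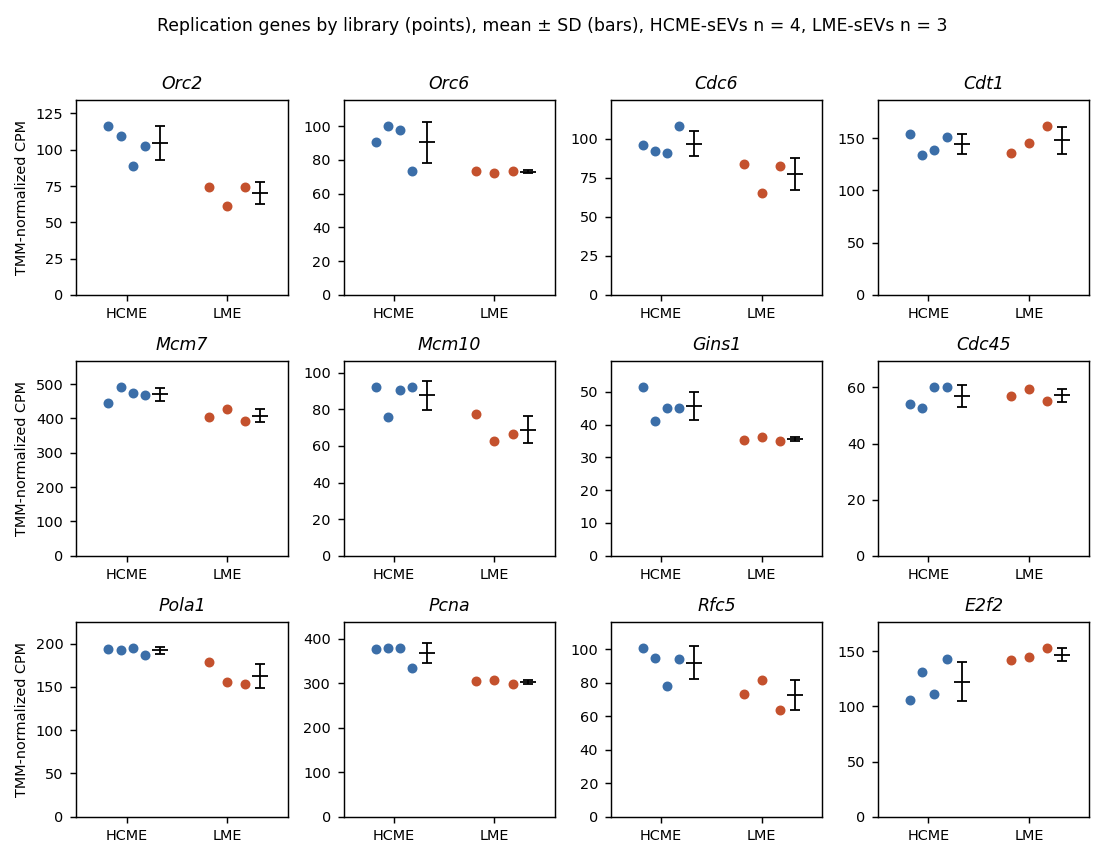
TMM-normalized CPM of 12 members in each library (points) with mean ± SD (black), HCME-sEVs (blue, n = 4) and LME-sEVs (orange, n = 3). Orc2, Cdc6, Mcm7, Gins1, Pola1 and Pcna are separated between groups, whereas Cdt1 and Cdc45 overlap widely.

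Among the genes of origin recognition and licensing, Orc2 and Cdc6 fell and 4 did not pass the test. Orc2, a subunit of the origin recognition complex (chr1:58462771-58505109), was at 117, 109, 88.8 and 103 CPM in HCME-sEV libraries 1 to 4 and at 74.5, 61.4 and 74.3 CPM in LME-sEV libraries 1 to 3. The groups did not overlap, and the lowest HCME-sEV library stood well above the highest LME-sEV library. Its log2 fold change of -0.58 (standard error 0.103, FDR = 0.00166, edgeR) was the largest of the members in size. Exons of Orc2 overlap those of Nif3l1 on the opposite strand, and Nif3l1 was lower as well, from 23.3 to 17.3 CPM (log2 fold change -0.43, FDR = 0.0488, edgeR). Whether counting used the strand is not given in the sources used here, so reads of this pair may have been shared.

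Cdc6, the ATPase that brings the helicase to ORC (chr11:98907801-98923940), was at 96.1, 92.5, 91.0 and 108 CPM with HCME-sEVs. With LME-sEVs it was at 84.2, 65.6 and 82.8 CPM, below all of these. Its log2 fold change was -0.33 (standard error 0.101, FDR = 0.0476, edgeR), close to the threshold. Orc6, another ORC subunit, was at 90.6, 100.4, 97.6 and 73.3 CPM against 73.7, 72.1 and 73.5 CPM. HCME-sEV library 4 thus sat at the level of the LME-sEV libraries, and the log2 fold change of -0.31 missed the threshold (FDR = 0.0683, edgeR). Orc6 passed in 2 of 15 alternatives, with the replicate number as a block (-0.40, FDR = 0.00336) and without HCME-sEV library 4 (-0.40, FDR = 0.0143, edgeR).

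Cdt1, the partner of Cdc6 in licensing, had no difference that passed the test. It was at 154, 134, 139 and 151 CPM with HCME-sEVs and at 136, 146 and 162 CPM with LME-sEVs, with wide overlap. The log2 fold change was 0.03 with an interval from -0.14 to 0.21. Its inhibitor geminin (Gmnn) had 113 ± 6.87 and 101 ± 4.52 CPM, a log2 fold change of -0.16 that did not pass (FDR = 0.269, edgeR). Orc1, the largest ORC subunit and itself made periodically, had 53.3 ± 9.78 and 49.9 ± 5.35 CPM.

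None of the 6 MCM genes passed the test, and all 6 had a log2 fold change below 0, from -0.20 to -0.02, with Mcm4 turning to just above 0 when scaled by library size only (0.03) or by the upper quartile (0.004). These genes encode the ring of the replicative helicase, and several of them are among the most abundant members. Mcm7 was at 444, 493, 475 and 469 CPM with HCME-sEVs and at 405, 429 and 392 CPM with LME-sEVs (log2 fold change -0.20, FDR = 0.0931, edgeR). Mcm3 had 415 ± 21.2 and 365 ± 20.2 CPM, and Mcm2 was at 126, 126, 142 and 136 CPM against 120, 120.5 and 118 CPM. In these 3 genes the groups did not overlap. Mcm5 was at 267, 262, 239 and 258 CPM against 240.0, 215 and 214 CPM, where LME-sEV library 1 reached HCME-sEV library 3. Mcm4 and Mcm6 were nearly level, with log2 fold changes of -0.02 (interval -0.19 to 0.15) and -0.05 (interval -0.21 to 0.10). Whether the subunits differ from each other was not tested.

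Of the 7 genes of origin firing, Mcm10 and Gins1 fell. Mcm10, which activates the loaded helicase (chr2:4989714-5012791), was at 92.3, 76.0, 90.4 and 92.4 CPM with HCME-sEVs and at 77.2, 62.9 and 66.3 CPM with LME-sEVs. HCME-sEV library 2 lay just below LME-sEV library 1, so the groups overlapped at a single point. The log2 fold change was -0.36 (standard error 0.0998, FDR = 0.0288, edgeR). Gins1, a subunit of GINS (chr2:150905400-150931280), was at 51.6, 41.1, 45.1 and 44.9 CPM against 35.2, 36.2 and 35.1 CPM. The LME-sEV libraries were within about 1 CPM of each other and below all HCME-sEV libraries (log2 fold change -0.36, standard error 0.108, FDR = 0.0398, edgeR).

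The other GINS subunits did not pass. Gins2 had 72.0 ± 4.31 and 62.9 ± 1.58 CPM and Gins3 43.6 ± 3.66 and 37.6 ± 1.80 CPM. For both, the LME-sEV libraries lay below the HCME-sEV libraries without passing the test (FDR = 0.205 and 0.248, edgeR). Gins4 was level, with 88.6 ± 10.4 and 87.1 ± 5.26 CPM. Cdc45, which joins MCM and GINS in the active helicase, was at 54.2, 52.7, 60.0 and 60.3 CPM against 57.0, 59.6 and 55.1 CPM. Its log2 fold change was 0.01 with an interval from -0.19 to 0.21. The firing kinase Cdc7 had 34.1 ± 2.47 and 33.5 ± 3.59 CPM.

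No gene of the polymerases and primase passed, and 8 of 9 had log2 fold changes below 0, of which Pold1 turned to 0.006 with scaling by library size only. Pola1, the catalytic subunit of polymerase alpha that starts each strand, came nearest. It was at 194, 192, 196 and 187 CPM with HCME-sEVs and at 179, 155 and 154 CPM with LME-sEVs. All HCME-sEV libraries stood above all LME-sEV libraries, and the log2 fold change of -0.24 just missed the threshold (standard error 0.0794, FDR = 0.0611, edgeR). Pola1 passed with the replicate number as a block (FDR = 0.0333) and without LME-sEV library 1 (FDR = 0.0432, edgeR). The groups did not overlap either for Pold3, an accessory subunit of polymerase delta (log2 fold change -0.21, FDR = 0.187), or for Pole2, the second subunit of polymerase epsilon (log2 fold change -0.35, FDR = 0.158, edgeR). The catalytic subunits Pold1 and Pole were nearly level, at -0.04 (interval -0.24 to 0.16) and -0.05 (interval -0.24 to 0.13). The primase subunits Prim1 and Prim2 were at -0.11 and 0.08.

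The clamp and a clamp loader gene fell. Pcna (chr2:132249162-132253314) was at 378, 380.1, 381 and 334 CPM with HCME-sEVs and at 305, 308 and 298 CPM with LME-sEVs. The groups did not overlap, although HCME-sEV library 4 was well below the 3 other controls. The log2 fold change was -0.28 (standard error 0.0750, FDR = 0.0234, edgeR). Rfc5, a small subunit of the loader RFC (chr5:117378103-117389047), was at 101, 94.5, 77.9 and 94.1 CPM against 73.5, 81.4 and 63.4 CPM. The groups overlapped, since HCME-sEV library 3 lay below LME-sEV library 2 (log2 fold change -0.34, standard error 0.105, FDR = 0.0461, edgeR). Rfc5 shares exonic sequence with Wsb2 on the opposite strand, which was at 17.6 and 22.1 CPM (log2 fold change 0.33, FDR = 0.175, edgeR). The other RFC subunits did not pass. Rfc3 was at -0.20 (FDR = 0.219, edgeR), and Rfc1 at -0.08, while Rfc2 (-0.005) and Rfc4 (-0.04) turned to 0.04 and 0.006 with scaling by library size only.

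No gene of RPA, the protein that coats unwound DNA, passed the test. Rpa1 was at 170.1, 152, 169.6 and 161 CPM with HCME-sEVs and at 148, 144 and 153 CPM with LME-sEVs (log2 fold change -0.14, interval -0.30 to 0.03). Rpa3, its smallest subunit, was the most variable member, with a coefficient of variation of 41.0% over HCME-sEV and 47.8% over LME-sEV libraries. It was at 17.6, 25.1, 38.4 and 16.8 CPM in HCME-sEV libraries 1 to 4 and at 14.3, 24.3 and 38.8 CPM in LME-sEV libraries 1 to 3. Libraries that share a number had close levels of Rpa3, and no direction between groups can be read from it (interval -0.42 to 0.67). Rpa3 was singled out after its values were seen.

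The genes that finish new strands and rebuild chromatin showed no call. Fen1, the flap endonuclease, was at 72.8, 90.0, 89.1 and 92.2 CPM with HCME-sEVs and at 77.5, 70.8 and 80.7 CPM with LME-sEVs (log2 fold change -0.17, FDR = 0.316, edgeR). HCME-sEV library 1 lay among the LME-sEV libraries. Lig1, the ligase of the lagging strand and the most abundant member, had 669 ± 32.5 and 590 ± 45.0 CPM, a log2 fold change of -0.18 (FDR = 0.147, edgeR). Chaf1a and Chaf1b, subunits of the assembly factor that places histones behind the fork, were at -0.04 and -0.03, and at 0.01 and 0.02 with scaling by library size only.

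Among the proteins that guard the fork, Tipin was lower in every LME-sEV library, with 312 ± 8.18 and 274 ± 10.6 CPM, and did not pass (FDR = 0.120, edgeR). Its partner Timeless was at -0.10. Clspn, which carries the checkpoint signal to the kinase Chek1, was at 123, 127, 108 and 135 CPM against 123, 113 and 119 CPM, all within the range of the HCME-sEV libraries. Slbp, which binds the stem-loop of histone mRNA, was at 27.0, 24.6, 26.1 and 27.2 CPM against 23.9, 22.9 and 25.6 CPM (log2 fold change -0.12, FDR = 0.621, edgeR).

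None of the 4 E2F genes passed the test. E2f1, an activator, was at 31.1, 27.4, 25.3 and 36.1 CPM with HCME-sEVs and at 25.8, 29.7 and 22.5 CPM with LME-sEVs, a log2 fold change of -0.21 (FDR = 0.391, edgeR). E2f2, usually classed with the activators, was at 105, 131, 111 and 142 CPM against 142, 145 and 153 CPM. How it acts in these cells was not tested. The groups overlapped only in that HCME-sEV library 4 lay slightly above LME-sEV library 1. The log2 fold change of E2f2, 0.26, did not pass (standard error 0.0966, FDR = 0.1002, edgeR). It passed in 2 of 15 alternatives, the fit with the replicate number as a block and the fit without HCME-sEV library 4. E2f8, an atypical repressor, was at 36.6, 57.3, 45.3 and 48.9 CPM against 38.5, 45.6 and 48.3 CPM, with wide overlap. E2f7, the other atypical repressor, was at -0.15 (FDR = 0.548, edgeR).

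By role, the median log2 fold change was -0.23 for recognition and licensing, -0.19 for origin firing, -0.17 for the MCM genes and -0.14 for the clamp and its loader. It was -0.12 for the E2F genes and close to -0.10 for RPA, for the fork proteins and for the genes of maturation and chromatin assembly, and -0.09 for the polymerases and primase. These medians rest on 3 to 9 genes each, and their order was not tested. Per library, the median of all 49 members relative to the HCME-sEV mean was between -0.03 and 0.04 on the log2 scale in HCME-sEV libraries and between -0.16 and -0.10 in LME-sEV libraries. Over all tested genes the same median stayed between -0.003 and 0.02 in every library, which TMM scaling on these genes largely sets. With scaling by library size only, the median log2 fold change was 0.06 over all tested genes and -0.07 over the members. The libraries of the groups overlapped in the medians of the E2F genes and of RPA and in Slbp, and in no other role.

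**Figure D4:**
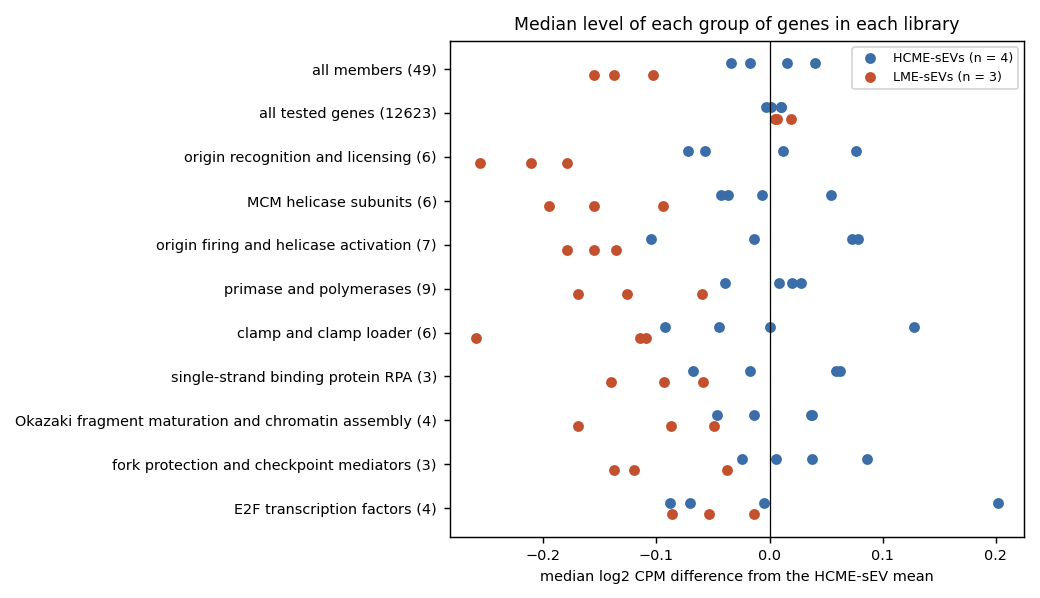
Median over the genes of each role of the log2 CPM difference from the HCME-sEV mean, 1 point per library (blue HCME-sEVs, orange LME-sEVs), with the number of genes in parentheses. For all members LME-sEV libraries lie between -0.16 and -0.10, and for all tested genes every library lies near 0, which TMM scaling largely sets.

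Members with E2F letters in the promoter were compared with those without. The 17 members with a match had a median log2 fold change of -0.19, with 15 below 0 and 1 that fell, Cdc6. The 23 members with a window and no match had a median of -0.10, with 21 below 0 and 4 that fell (Orc2, Mcm10, Pcna and Rfc5). Gins1 had no window. Whether these groups of members differ was not tested, and the promoters that hold no E2F letters here may hold other forms of the site. Stretches near the start of Pcna and Mcm10 are shown as examples of members that fell and hold none of the letters searched.
Pcna (chr2:132253156-132253255, minus strand): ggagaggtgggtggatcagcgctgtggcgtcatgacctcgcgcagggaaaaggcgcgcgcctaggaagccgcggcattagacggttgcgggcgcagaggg
Mcm10 (chr2:5012767-5012866, minus strand): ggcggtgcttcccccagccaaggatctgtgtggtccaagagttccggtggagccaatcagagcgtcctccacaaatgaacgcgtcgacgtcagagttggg

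Genes that act with the members were read from lists in the same fit. Their counts stand beside 5.21% of all tested genes lower and 3.75% higher, and no list was tested as a whole. Of 34 other replication factors tested, 4 fell and 1 rose. Those that fell were Asf1a and Nasp, histone chaperones that supply new nucleosomes, and Uhrf1 and Hells, which keep DNA methylation through replication. Uhrf1 went from 120.2 ± 2.71 to 95.7 ± 5.77 CPM, a log2 fold change of -0.33 (FDR = 0.0153, edgeR), and Asf1a from 89.6 ± 10.3 to 65.8 ± 4.13 CPM (log2 fold change -0.45, FDR = 0.00842). Nasp was at -0.33 and Hells at -0.25. Pold4, the small subunit of polymerase delta, rose from 13.5 ± 2.55 to 20.8 ± 5.37 CPM (log2 fold change 0.63, FDR = 0.0353, edgeR).

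Of 9 genes that supply deoxynucleotides, Dck, a salvage kinase, rose (log2 fold change 0.35, FDR = 0.0261, edgeR) and none fell, while Dut was at -0.21 (FDR = 0.0684) and Rrm1 at -0.22 (FDR = 0.125). Of 20 genes of the S-phase checkpoint and fork repair, none passed. Those with the smallest p were Hus1 at -0.42, Chek1 at -0.29 and Brca2 at 0.21.

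The cyclins and kinases that open S phase were read next. Of 16 G1 and S cyclins, kinases and inhibitors, 5 fell and 1 rose. Ccnd2, the main D-type cyclin of these cells by count, fell from 1924 ± 97.3 to 1420.4 ± 131 CPM, a log2 fold change of -0.44 (FDR = 0.00167, edgeR). Its kinase Cdk6 fell from 703 ± 67.2 to 514 ± 23.5 CPM (log2 fold change -0.45, FDR = 0.00167, edgeR). Ccne2, an E-type cyclin of S-phase entry, was at -0.50 (FDR = 0.00567), the phosphatase Cdc25a at -0.36 (FDR = 0.0110) and Ccnd3 at -0.30 (FDR = 0.0389, edgeR). Cdkn1b, which encodes the inhibitor p27, rose from 81.8 ± 10.9 to 108 ± 7.93 CPM (log2 fold change 0.41, FDR = 0.0132, edgeR).

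Of 13 E2F, DP and pocket protein genes outside the members, 3 rose and none fell. Rbl2, the pocket protein p130 of resting cells, rose from 48.7 ± 2.39 to 63.7 ± 6.79 CPM (log2 fold change 0.39, FDR = 0.0165, edgeR). Rb1 rose from 41.8 ± 4.40 to 52.9 ± 3.71 CPM (log2 fold change 0.35, FDR = 0.0479) and Tfdp2, an E2F partner, from 50.8 ± 3.41 to 62.8 ± 2.98 CPM (log2 fold change 0.31, FDR = 0.0489, edgeR). In all 3, every LME-sEV library stood above every HCME-sEV library. Of all tested genes 5.21% were lower and 3.75% higher, and within the abundance range of the members 7.81% and 4.70%. Over these lists together, members and mitosis genes aside, 92 genes were tested, of which 9 fell and 6 rose. With Cdc20 of the mitosis genes 10 fell, and 5 without LME-sEV library 2 or 3. The count that rose was 0 without LME-sEV library 2, 1 without LME-sEV library 3, 2 without HCME-sEV library 4, and 3 without HCME-sEV library 1 or 2 or with DESeq2.

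Of 25 mitosis genes tested, 1 fell, beside 5.21% of all tested genes that were lower. Cdc20, the activator of the anaphase complex, fell from 173 ± 4.69 to 138 ± 10.1 CPM (log2 fold change -0.32, FDR = 0.0144, edgeR). Cdk1 was at -0.24 (FDR = 0.0593) and Plk1 at -0.26 (FDR = 0.133). The median log2 fold change of the mitosis genes was -0.04, with 18 of 25 below 0, beside -0.12 and 44 of 49 for the replication genes. That difference was not tested.

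**Figure D5:**
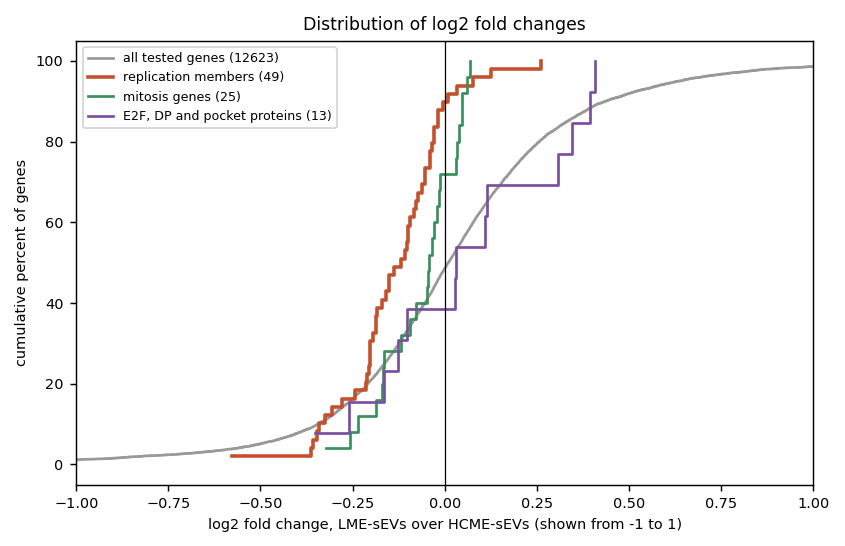
Cumulative percent of genes by log2 fold change (LME-sEVs over HCME-sEVs) for all tested genes (gray), the 49 members (orange), 25 mitosis genes (green) and 13 E2F, DP and pocket protein genes (purple). At a log2 fold change of 0 the curve of the members has reached 89.8% and that of all tested genes 48.5%, and the lowest member, Orc2, lies at -0.58.

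Totals lay between 3689831 and 5030522 counts per library, at which 3 counts, the smallest level taken as shown, stand for 0.580 to 0.804 CPM, below the level of every member. The CD8 T-cell markers (Cd8a, Cd8b1, Cd3e and 6 others) summed to between 2748 and 2851 CPM in HCME-sEV and between 2890 and 3199 CPM in LME-sEV libraries. Of 5 markers of CD4 and regulatory T cells, Cd4 and Foxp3 were at 0 to 3 counts per library, and their list summed to between 110 and 152 CPM against 168 and 223 CPM, nearly all of it Ctla4, which activated CD8+ T cells express as well. The 8 B-cell markers summed to between 15.2 and 18.3 CPM against 16.8 and 19.8 CPM, the 8 myeloid markers to between 3.45 and 6.01 CPM against 7.34 and 11.5 CPM, and the 8 erythroid and platelet markers to between 71.6 and 175 CPM against 150.1 and 197 CPM. The sums of basophil, mast-cell and eosinophil markers (5.28 to 30.3 against 20.1 to 37.9 CPM), dendritic-cell markers (7.07 to 9.37 against 9.65 to 12.4 CPM), NK-cell markers (17.9 to 30.3 against 15.8 to 29.2 CPM) and plasma-cell markers (2.78 to 4.55 against 2.95 to 5.02 CPM, Mzb1 at 0) were small beside the summed level of the members, although some exceeded the least abundant single members. Markers that rose were 2 of 9 for CD8 T cells (Cd3e and Cd3g) and 2 of 5 for CD4 and regulatory T cells (Ctla4 and Zbtb7b). They were 2 of 6 for basophils, mast cells and eosinophils (Prg2 and Mcpt8) and 3 of 8 for erythroid cells and platelets (Ppbp, Pf4 and Hba-a1). None of the markers tested in the other lists rose, and 3.75% of all tested genes rose. Markers below the low-count filter were not tested, so their direction is not given. All 9 CD8 T-cell markers were tested, 2 of 5 for CD4 and regulatory T cells, and 4 of 6 for basophils, mast cells and eosinophils. For erythroid cells and platelets 6 of 8 were tested, for B cells 3 of 8 and for myeloid cells 2 of 8. Only 1 was tested for each of dendritic, NK and plasma cells. Prg2 went from 0.376 to 6.04 CPM, the largest rise of all tested genes (log2 fold change 3.92, FDR = 0.000165, edgeR). Mcpt8 went from 4.52 to 12.1 CPM (log2 fold change 1.43, FDR = 0.0341, edgeR), with the groups overlapping. The part of these other cells in the lower replication genes was not tested.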

How the data were processed

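The 7 libraries were grouped by sample title. The authors deposited UMI-collapsed counts per gene symbol, not normalized or filtered. Per the submitters' notes and methods, cutadapt 2.10, STAR 2.5.3a (GRCm38), UMI-tools 1.0.0 and featureCounts (Subread 2.0.0) were used. The annotation release and strand setting are not given in the sources used here. Because UMIs remove PCR copies, counts stand for captured molecules.

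Counts were scaled with TMM after the low-count filter. The test was edgeR 4.0.16 (glmQLFit and glmQLFTest, R 4.3.3) without covariates, with Benjamini-Hochberg adjustment over 12623 genes. Intervals are 95% and unadjusted. On simulated data with 12623 genes, 100% of 100 genes changed by 1 (log2) and 19% of 100 changed by 0.3 were called, with 13 false calls. Members, lists and motifs were chosen with earlier results of these data known. Values in each library were given for members called, for 13 key members and for those of smallest p up to 10, and 3 genes of smallest p were named per other list. Further called genes were named after their values were seen. Coordinates are of GENCODE vM21. Exons of another gene overlap 19 members (17 on the opposite strand). By blastn 2.17.0 on the last 300 bases (95% identity over 200), 0 members had a near-identical 3′ end. Alternatives were scaling, filter, DESeq2 1.42.0, limma-voom 3.58.1, replicate block and leaving out each library.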

Additional observations from a re-analysis of the deposited data

Results flagged for a closer look

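Among HCME-sEV libraries, 3 of the 49 members had 1 library distant from the rest by Dixon's ratio (gap over range), a number near the 2.45 that chance alone would give. The ratio was 0.944 for Pcna, with library 4 at 334 CPM and the others at 378 to 381 CPM. It was 0.878 for Mcm10, with library 2 at 76.0 CPM and the others at 90.4 to 92.4 CPM, and 0.840 for Fen1, with library 1 at 72.8 CPM and the others at 89.1 to 92.2 CPM. All 3 distant values lay toward the level of the LME-sEV group, whose 3 samples cannot be tested this way.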

How the results depend on the processing

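Over 15 alternatives the median log2 fold change of the members stayed below 0, at -0.072 with library size only and -0.15 to -0.11 with 1 library left out. Relative to the median of all tested genes it lay between -0.16 and -0.12. The count of 6 members that fell became 2 with library size only and 3 with the upper quartile or DESeq2, 1 to 6 with 1 library left out (2 without HCME-sEV library 1, 3 without HCME-sEV library 2 or 4 or LME-sEV library 1, and 1 without LME-sEV library 2 or 3). Members that rose were 0 to 1 with a library left out, and 1 with the replicate block. Of the other listed cell-cycle genes, the 10 that fell became 5 to 13 and the 6 that rose 0 to 5 with a library left out (3 rose with DESeq2). Over all tested genes, 223 to 756 were lower and 170 to 537 higher with a library left out, 860 and 594 with the replicate block, and 465 and 614 with library size only. With the upper quartile 543 were lower and 522 higher, and with DESeq2 562 and 328.

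No member that fell changed sign. Signs turned for members near 0. With library size only, log2 fold changes were Mcm4 0.027, Cdc7 0.025, Gins4 0.017, Pold1 0.0061, Rfc2 0.040, Rfc4 0.0056, Chaf1a 0.010, Chaf1b 0.015. With the upper quartile they were Mcm4 0.0041, Cdc7 0.00082, Rfc2 0.016, and for Rfc2 0.0020 with no filter and 0.0022 with filterByExpr. With a library left out the ranges were Orc1 -0.19 to 0.019, Cdt1 -0.038 to 0.095, Mcm4 -0.057 to 0.056, Cdc7 -0.11 to 0.046, Cdc45 -0.024 to 0.040, Gins4 -0.084 to 0.036, Pold1 -0.11 to 0.030, Rfc2 -0.080 to 0.11, Rfc4 -0.12 to 0.053, Rpa3 -0.31 to 0.42, Chaf1a -0.070 to 0.0013, Chaf1b -0.059 to 0.026, E2f8 -0.19 to 0.024.

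With the replicate number as a block, 7 members fell, Orc6 and Pola1 among them, E2f2 rose, Cdc6 no longer passed, and log2 fold changes turned for Mcm4 0.021, Gins4 0.015, Rpa3 -0.081. Same-numbered libraries correlated in their deviations at 0.07, 0.15 and 0.03, and libraries of unlike number at -0.21 to 0.08. Not every library correlated best with its own number. With so few libraries, these values can neither show nor exclude a pairing. The cause of these shifts was not tested. With 3 and 4 libraries, differences near 0.3 on the log2 scale are often missed.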
